A study of Rattus norvegicus with 20 samples.

Results

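The respiratory chain of mitochondria was read as mRNA in small vessels dissected from the kidneys of 20 male rats. Its members were taken by name, as the nuclear genes whose symbols begin with Nduf, Uqcr, Cox4 to Cox8, Atp5 or Sdha to Sdhd, and the protein genes of mitochondrial DNA (Mt-nd, Mt-co, Mt-atp and Mt-cyb). Of 16672 listed genes, 109 were members. The nuclear ones filled 96 rows under 94 names. Of these rows, 81 were of subunits and their isoforms, 10 of assembly factors and 5 of pseudogene names. The other 13 members were mitochondrially encoded. The test required a value of at least 10 in at least 5 libraries, which 108 members passed. The exception was the pseudogene Ndufa5-ps4.

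Each of 4 groups held 5 rats, named rats 1 to 5 within their group. Dahl salt-sensitive (SS) rats carrying a Ccl2 null mutation (SS Ccl2-/-, called null rats here) ate chow with 4.0% NaCl (null high salt) or 0.3% NaCl (null low salt), and SS rats without the mutation ate the same chows (SS high salt, SS low salt), all for 2 weeks. The SS strain becomes hypertensive on high salt, and Ccl2 is a chemokine that draws monocytes. Their age is not given in the sources used here, and the study's title asks about myogenic tone in these vessels and what Ccl2 contributes to it.

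A library held 22.0 to 47.9 M reads, with a mean of 31.2 M. Values are the authors' normalized counts, and a fold change is the difference of means of log2(value + 1) between groups, with its standard error. Ccl2 mRNA was still read in every null library, at 77.5 to 128 on high salt and 124 to 218 on low salt, against 167 to 426 in SS rats on high salt and 138 to 212 on low salt, so its mRNA does not check the genotype labels. Rat 1 of SS high salt and rat 4 of null low salt stood apart on the leading principal components. All 10 smooth muscle and all 10 endothelial markers were above 0 in every library. So were the markers read for every other listed cell type, T cells and podocytes included, so this does not show how much vessel the samples held. Tubule RNA was present: the 16 proximal tubule markers together took 1.38% to 2.18% of all values, against 0.120% to 0.262% for the smooth muscle list. In bulk tissue, fewer cells of a type and less RNA per cell cannot be told apart.

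Complexes I, III and IV of the chain pump protons out of the mitochondrial matrix as electrons pass from NADH to oxygen, complex II (succinate dehydrogenase) feeds in electrons from succinate, and complex V (ATP synthase) uses the returning protons to make ATP. Complex II is wholly nuclear encoded, whereas the other complexes join nuclear subunits to a few encoded on mitochondrial DNA, which is transcribed as long precursors from both strands. In the kidney, tubule cells that move sodium hold dense mitochondria, the proximal tubule and thick ascending limb above all, while vessel walls hold fewer.

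Many nuclear members share promoter letters known in mammals as binding sites of nuclear respiratory factor 1 (NRF1) and of ETS family factors, which include the GABP complex. Among genes lower on high salt in SS rats, Cox5b, Atp5me, Uqcrq, Uqcrh, Ndufs8 and Sdhd have such a match. Cox5a, Ndufa4, Uqcr10, Ndufb5 and Ndufv2, also lower, have none, and neither has the isoform gene Ndufa4l2. The stretches below are chosen examples, from the genes named with a match and from Ndufa4l2. They are read 5′ to 3′ on the gene's own strand from RefSeq's rat assembly GRCr8, and capitals mark the match: GCGCA, any base and GCGC for NRF1, or CCGGAAG for ETS, which reads CTTCCGG when it lies on the opposite strand.
Cox5b, chr9:46417796-46417836, plus strand: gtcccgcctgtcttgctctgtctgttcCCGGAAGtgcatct
Atp5me, chr14:1464759-1464818, plus strand: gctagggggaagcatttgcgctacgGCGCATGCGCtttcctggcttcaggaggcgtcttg
Uqcrq, chr10:38089979-38090027, minus strand: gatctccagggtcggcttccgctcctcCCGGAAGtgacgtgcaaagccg
Uqcrh, chr5:134790933-134790992, minus strand: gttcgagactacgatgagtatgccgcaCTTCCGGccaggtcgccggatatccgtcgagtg
Ndufs8, chr1:210573699-210573737, minus strand: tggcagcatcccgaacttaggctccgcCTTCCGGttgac
Sdhd, chr8:59850657-59850716, minus strand: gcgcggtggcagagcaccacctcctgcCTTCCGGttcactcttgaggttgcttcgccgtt
Ndufa4l2, chr7:65242109-65242168, plus strand: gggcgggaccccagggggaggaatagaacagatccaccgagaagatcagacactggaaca

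RefSeq promoters were found for 79 of the 94 nuclear names. The window searched ran from 250 bases before the start to shortly past it, on both strands. In it the NRF1 letters were in 17 of these 79 (21.5%), against 4.25% of all 33469 promoters. The ETS letters were in 24 (30.4%), against 8.75%. AANATGGCG, a YY1 site, was in 17 (21.5%), against 3.01%, and TNAAGGTCA, the site of estrogen-related receptors, was in 3 (3.80%), against 1.20%. The NRF1 letters were about as frequent in members lower on high salt in SS rats, 9 of 43 (20.9%), as in the other members, 8 of 36 (22.2%). The ETS letters were in 16 of the 43 (37.2%) and 8 of the 36 (22.2%). These shares describe letters in a window, with no test.

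In SS rats the mitochondrially encoded mRNAs had the largest fold changes of all members. All 13 were lower on high salt, by 1.44 to 2.15 on the log2 scale with a median of -1.74, where 7.73% of all 16153 tested genes were lower and the median gene was at -0.00 (limma, all 13 with an adjusted p under 0.05). They took 7.31%, 14.6%, 17.1%, 6.90% and 20.4% of reads in SS rats 1 to 5 on high salt, against 33.8%, 42.5%, 22.6%, 25.8% and 26.1% on low salt. Every high-salt rat lay below every low-salt rat, and the high-salt rats differed widely among themselves. In null rats the shares were 14.2%, 14.9%, 9.77%, 16.5% and 10.9% on high salt, against 20.8%, 20.5%, 17.2%, 14.1% and 29.5% on low salt. Here the groups met, because rat 4 of the low-salt group lay among the high-salt rats.

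**Figure D1:**
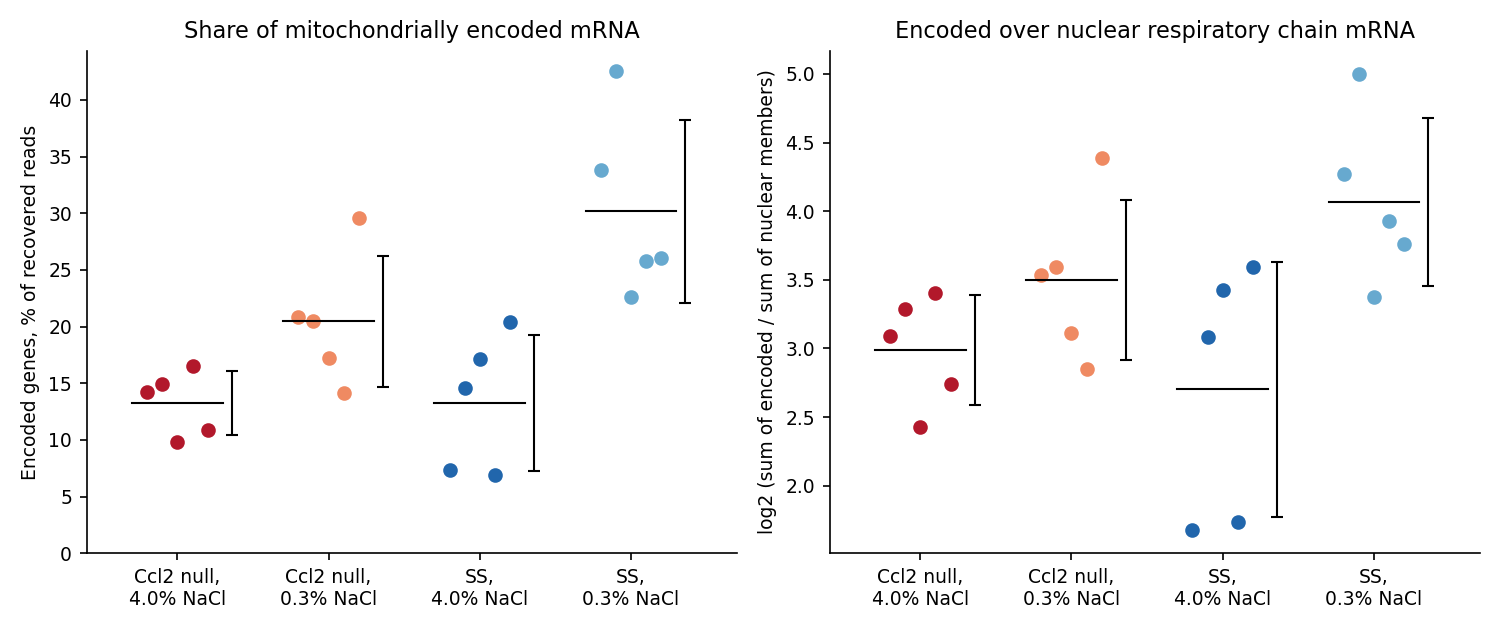
Mitochondrially encoded mRNAs in each library: at left their percentage of recovered reads, and at right the log2 ratio of their summed values to the summed values of the nuclear members, which does not depend on how libraries are scaled. Each point is a rat, the line is the group mean and the bar the SD (n = 5); the share averaged 13.3% in the null high-salt, 20.5% in the null low-salt, 13.3% in the SS high-salt and 30.2% in the SS low-salt group.

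Mt-co1, which encodes the catalytic subunit of cytochrome c oxidase (complex IV), had 964840, 1566085, 1863985, 862918 and 2224341 normalized counts in SS rats 1 to 5 on high salt, against 5275620, 6408012, 3256110, 2761360 and 2996315 on low salt. Its 5 high-salt values all lay below the low-salt ones, and its log2 fold change was -1.48 ± 0.48 (limma adjusted p = 0.0356). That call was lost when rat 1 or rat 4 on high salt, or rat 1 or rat 2 on low salt, was left out. The largest fold change was that of Mt-nd2, a membrane-arm subunit of complex I. It had 38868, 149441, 205868, 39262 and 315695 on high salt, against 458296, 1020111, 248669, 464827 and 476741 on low salt, a log2 fold change of -2.15 ± 0.55 (limma adjusted p = 0.0101). Rats 1 and 4 on high salt were the lowest, and rat 5 on high salt lay above rat 3 on low salt.

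The smallest adjusted p was that of Mt-nd3, another subunit of the membrane arm, with 16568, 37426, 47779, 19323 and 44504 in SS rats on high salt, against 144644, 108929, 74251, 83947 and 92727 on low salt (log2 fold change -1.70 ± 0.26, limma adjusted p = 1.63e-04). No high-salt rat reached the lowest low-salt rat. Mt-cyb, the cytochrome b of complex III, changed by -1.92, Mt-atp6 and Mt-atp8 of the proton channel of complex V by -1.95 and -1.69, and the complex IV core genes Mt-co2 and Mt-co3 by -1.64 and -1.75. The complex I genes Mt-nd1, Mt-nd4, Mt-nd4l and Mt-nd5 changed by -1.90, -1.74, -1.84 and -1.44. Mt-nd6, the only protein gene read from the light strand of mitochondrial DNA, changed by -1.62, within the range of the heavy-strand genes. The sources used here do not give the strand setting of the counts, so the Mt-nd6 row may hold reads of the opposite strand. Reads of encoded genes cannot be told from those of nuclear copies of mitochondrial DNA.

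Markers of the loop of Henle moved with the encoded mRNAs, and those of other tubule segments were mixed. Of 10 loop of Henle markers, 8 were lower on high salt in SS rats (limma), none was higher, and none was at 0 in any library. Their sum was 0.427% to 0.691% of the values without encoded genes in SS rats on high salt, against 0.920% to 1.36% on low salt. In null rats it was 0.664% to 0.756% on high salt, against 0.625% to 1.25% on low salt, with 2 of 10 markers lower. Of 16 proximal tubule markers, 4 were lower and 1 was higher in SS rats (median -0.10), 3 of 10 collecting duct markers were lower, and of 7 distal convoluted tubule markers 2 were lower and 1 was higher (median 0.07). In null rats 13 of 16 proximal tubule markers had a sign above 0. All 9 T cell markers were higher in SS rats, with sums of 1656 to 2479 on high salt and 805 to 1288 on low salt, as were 6 of 9 macrophage markers. What these cells contributed to the encoded mRNAs was not tested. With the mean log2 level of the tubule markers as a covariate the median change of the encoded mRNAs in SS rats was -1.03 and none of the 13 passed the threshold, but the SS groups do not overlap in that score (12.46 to 12.51 on high salt, at least 12.74 on low salt), so that this fit can barely tell tubule content from diet.

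In null rats, Mt-nd3 was the only one of the 13 encoded mRNAs to pass the threshold on high salt, where 2.45% of all genes were lower. It had 35187, 32346, 22076, 36382 and 24616 on high salt, against 58384, 55783, 47350, 41538 and 73329 on low salt, with no overlap and a log2 fold change of -0.88 ± 0.26 (limma adjusted p = 0.0461). It kept its call in 9 of 20 fits that each left out a rat. All 5 null rats on high salt were needed for it, as were rats 1, 2, 3 and 5 of null low salt and rats 4 and 5 of SS low salt. The 13 had a median of -0.74, against -0.00 for all genes, and 4 had an unadjusted p under 0.05. Mt-co1 had 1567168, 1374310, 1204360, 1664192 and 1234804 on high salt, against 2175894, 2336618, 1910351, 1834417 and 3384669 on low salt. Its groups did not overlap, yet the log2 fold change of -0.70 missed the threshold (limma adjusted p = 0.399). The fold changes of Mt-nd2, Mt-atp8 and Mt-nd6 were -0.72, -1.04 and -0.58, and none passed.

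The salt effect on encoded mRNAs was not shown to differ between genotypes. For all 13 the log2 salt effect was higher in null than in SS rats, a difference above 0, with a median of 0.98, but none passed the threshold by limma (where 0.774% of all genes were higher and 1.76% lower), edgeR or DESeq2, and 1 had an unadjusted p under 0.05. The 13 share the SS and null libraries and rise and fall together within them, so their common sign is not 13 observations. For Mt-nd2 the difference was 1.43 ± 0.78 (limma adjusted p = 0.345), and for Mt-co1 it was 0.78 (limma adjusted p = 0.58). Without the 2 libraries that stood apart the median was 0.57. Between genotypes on the same diet, none of the 13 passed the limma threshold. On high salt, where 3.7% of all genes were higher in null rats and 4.82% lower, the median of null over SS was 0.25, with none at an unadjusted p under 0.05 and none by edgeR or DESeq2. On low salt, where 0.452% of all genes were higher and 0.105% lower, it was -0.85, with 5 at an unadjusted p under 0.05, none by edgeR and 1 by DESeq2. Mt-nd5, for example, was at -0.62 ± 0.31 and Mt-co1 at -0.78 on low salt.

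The encoded mRNAs did not vary in fixed proportion. The log2 ratio of Mt-co2 to Mt-co1 stayed within -2.15 to -1.98 in the null high-salt, -2.03 to -1.85 in the null low-salt, -2.09 to -1.98 in the SS high-salt and -2.06 to -1.73 in the SS low-salt group. That of Mt-nd2 to Mt-co1 ran over more than 1 log2 unit in every group, at -4.16 to -2.51, -4.28 to -2.67, -4.63 to -2.82 and -3.71 to -2.57 in the same order of groups. It was lowest in rats 1 and 4 of SS high salt, rat 4 of null low salt and rat 3 of null high salt, which come from 3 of the 4 groups. On average the Mt-nd2 ratio differed by -0.67 between SS rats on high and low salt and by -0.02 between null rats on high and low salt. For Mt-atp6 over Mt-co1 the differences were -0.47 and -0.04, and for Mt-nd3 over Mt-co1 they were -0.22 and -0.18. Most encoded mRNAs carry short poly A tails, the libraries were selected for poly A, and the part of that step in these ratios was not tested.

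**Figure D2:**
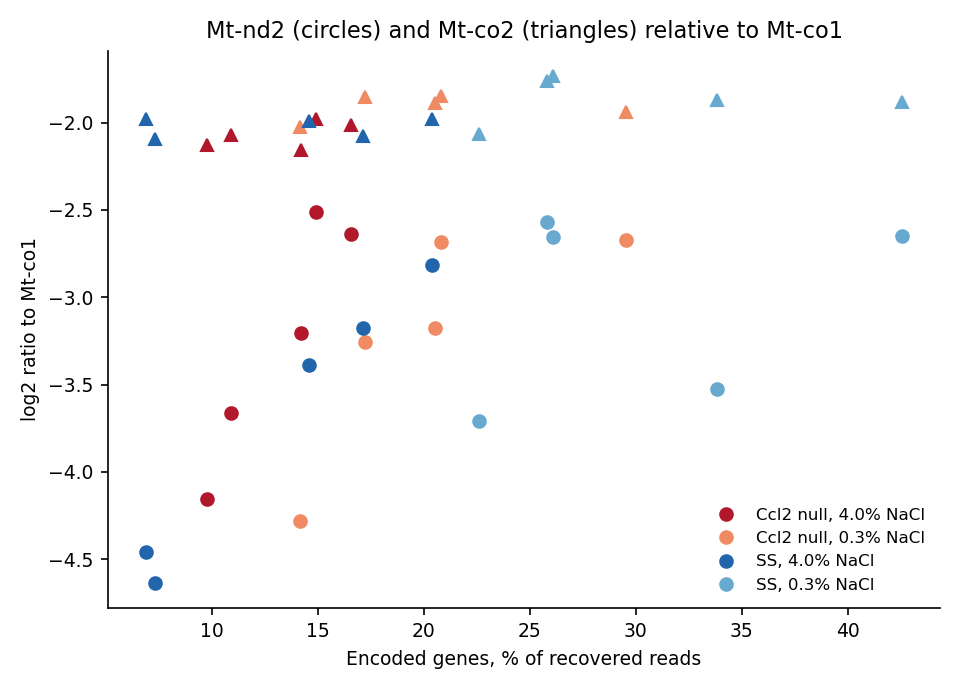
Composition of the encoded mRNAs: the log2 ratio to Mt-co1 of Mt-nd2 (circles) and Mt-co2 (triangles), plotted against the encoded percentage of reads in each of the 20 libraries, coloured by group. Mt-co2 stays between -2.15 and -1.73 throughout, while Mt-nd2 spreads between -4.63 and -2.51, with SS low salt at -3.71 or above and the other 3 groups reaching -4.16 or below.

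Nuclear members were also lower on high salt in SS rats, by less and with more exceptions. On the deposited scaling, 50 of 95 tested nuclear members were lower (52.6%) and none was higher, where 7.73% of all genes were lower and 9.52% were higher (limma, adjusted p under 0.05). Their median was -0.34, against -0.00 for all genes, and 90 of the 95 had a sign below 0. edgeR called 48 lower and DESeq2 55. The direction rests on the scaling: when each library is scaled to its total instead, the median of all genes moves to 0.38 and that of the nuclear members to 0.04, so that they stay below the other genes but not below 0, and 3 are called lower and 4 higher. The encoded median is -1.35 on that scaling, with all 13 lower. The loop of Henle markers given above were lower in the same rats, the T cell and macrophage markers were higher, and the part of these cells in the nuclear values was not tested.

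**Figure D3:**
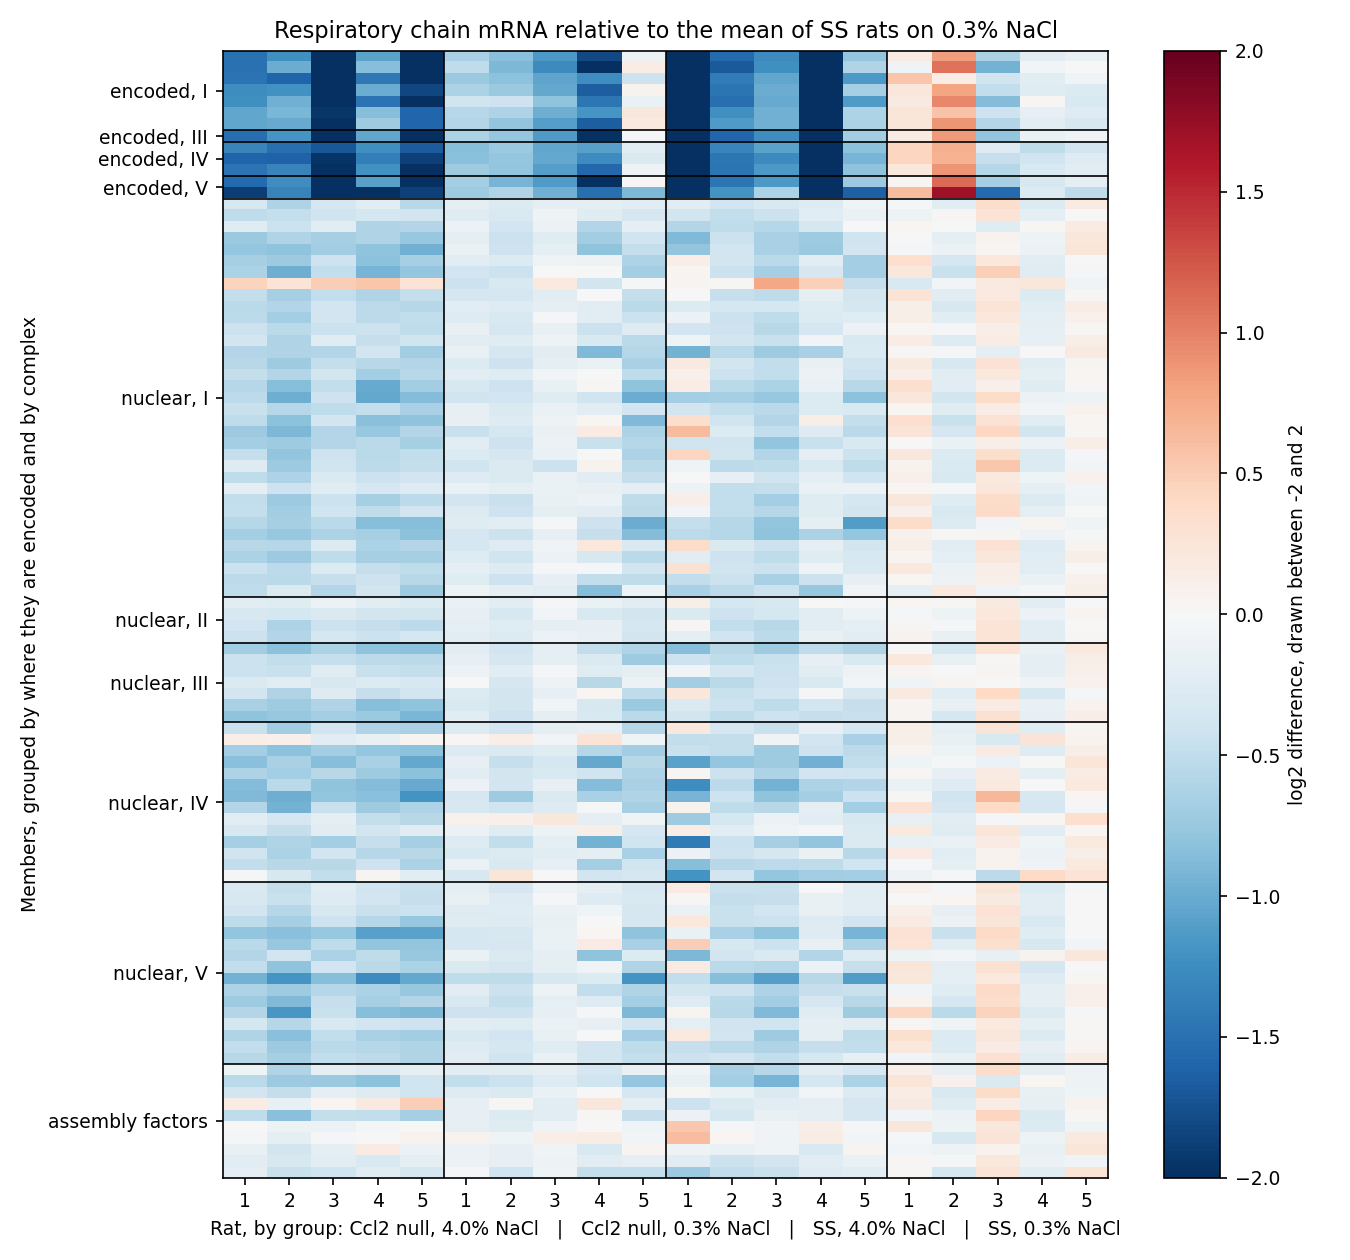
Encoded genes, nuclear subunits and assembly factors with a mean of at least 50 normalized counts (99 rows, pseudogene names left out) in each of the 20 libraries, coloured by the log2 difference from the mean of SS rats on 0.3% NaCl, with colours limited at -2 and 2, on the deposited scaling. The encoded rows are the strongest coloured, and in the nuclear rows most members are below 0 in SS rats on high salt.

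In complex IV, 12 of 16 rows of nuclear subunits were lower on high salt in SS rats (median -0.47, limma). Isoforms of the same subunit and both Cox6b1 rows are counted separately here. Cox5b, a structural subunit of cytochrome c oxidase, had 3847, 4742, 4901, 4140 and 5736 normalized counts on high salt, against 7571, 7896, 7411, 8109 and 9493 on low salt. No high-salt rat reached the low-salt range, and the log2 fold change was -0.80 ± 0.13 (limma adjusted p = 2.67e-04). It was lower on total scaling too, at -0.41. Cox5a, its partner in the structure, changed by -0.52 ± 0.09, and Ndufa4, once counted to complex I and now to complex IV, by -0.57 ± 0.10. Cox6b1, on the intermembrane side, has 2 rows that changed by -0.78 and -0.65, between which reads may have been split. Cox4i1, the common isoform of the largest nuclear subunit, was at -0.22 ± 0.12 and did not pass (limma adjusted p = 0.228), while Cox6a1 and Cox7a2, the widespread isoforms of their subunits, passed at -0.36 and -0.35, Cox7a2 in 11 of 20 fits that each left out a rat.

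In complex V, 8 of 18 subunit rows, which include both rows of Atp5mc1 and the inhibitor Atp5if1, were lower in SS rats on high salt (median -0.34). They were mostly of the membrane part and stalk, where 7 of 12 were lower (median -0.46), against 1 of 5 in the F1 head (median -0.26); the difference between the parts was not tested. Atp5me, a small membrane subunit found where ATP synthase dimers meet, had 3262, 2553, 2150, 3137 and 2122 on high salt, against 5372, 4027, 5252, 3838 and 4682 on low salt (log2 fold change -0.82 ± 0.15, limma adjusted p = 9.39e-04). The SS groups did not overlap. Atp5pf of the peripheral stalk changed by -0.51 ± 0.08, and the membrane subunits Atp5mf and Atp5mg by -0.46 and -0.48. The catalytic head genes Atp5f1a and Atp5f1b were at -0.19 ± 0.12 and -0.26 ± 0.12 and did not pass (limma adjusted p = 0.304 and 0.161), and neither did the inhibitor Atp5if1 at -0.20 ± 0.17 (limma adjusted p = 0.446).

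In complex III, 5 of 7 nuclear subunits were lower (median -0.40). Uqcrq, a small subunit of the cytochrome bc1 complex, had 3521, 3196, 3411, 3272 and 3325 in SS rats on high salt, against 4721, 3565, 5593, 4045 and 4989 on low salt (log2 fold change -0.44 ± 0.10, limma adjusted p = 0.0033). The high-salt rats were close to each other and all below the low-salt rats. Uqcr10 changed by -0.65 ± 0.10 and Uqcrh, the hinge protein between cytochromes c1 and c, by -0.41 ± 0.10. The core protein gene Uqcrc2 passed at -0.40, while its partner Uqcrc1 was at -0.23 (limma adjusted p = 0.0566) and the iron-sulfur subunit Uqcrfs1 at -0.19 (limma adjusted p = 0.366).

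In complex I, 18 of 36 nuclear subunits were lower (median -0.34), 3 of 6 among the core subunits, most of which carry electrons, and 15 of 30 among the accessory ones. Of the core, Ndufv2 had 4320, 4508, 3882, 4526 and 5425 in SS rats on high salt, against 6264, 5653, 6560, 5535 and 6485 on low salt. The SS groups did not overlap, and the log2 fold change was -0.43 ± 0.08 (limma adjusted p = 0.00145). Ndufs8 changed by -0.34 ± 0.09 and Ndufs1 by -0.26 ± 0.09, both below 0 here and above 0 on total scaling, at 0.05 and 0.13. Ndufv1 and Ndufs7, both at -0.18, did not pass (limma adjusted p = 0.29 and 0.391). The accessory subunits of smallest p were Ndufs6l1 at -0.66 ± 0.09, Ndufa11 at -0.61 ± 0.10, Ndufa12 at -0.59 ± 0.11 and Ndufb5 at -0.40 ± 0.08. Ndufs6l1 is near identical to Ndufs6, and its reads are uncertain between the copies.

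In complex II, which has no encoded subunit, 3 of 4 genes were lower (median -0.28). The iron-sulfur subunit Sdhb changed by -0.27 ± 0.08, and the membrane anchors Sdhc and Sdhd by -0.29 ± 0.10 and -0.29 ± 0.09. On total scaling these were above 0, at 0.12, 0.10 and 0.10, and Sdhc kept its call in only 4 of 20 fits that each left out a rat. Sdha, the flavoprotein, had 25780, 18628, 18982, 23645 and 23270 on high salt, against 24289, 24088, 27000, 20372 and 23550 on low salt. The groups lay across each other, at -0.12 ± 0.09 (limma adjusted p = 0.415). Of 10 assembly factors 4 were lower: Sdhaf2, which attaches flavin to Sdha, by -0.27 ± 0.07, Sdhaf3, which serves Sdhb, by -0.43 ± 0.13, and the complex I factors Ndufaf1 and Ndufaf2 by -0.37 ± 0.13 and -0.55 ± 0.16. Sdhaf2 and Ndufaf1 were at 0.12 and 0.02 on total scaling, and Ndufaf1 kept its call in 7 of 20 fits that each left out a rat. None of the 4 tested pseudogene rows passed.

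**Figure D4:**
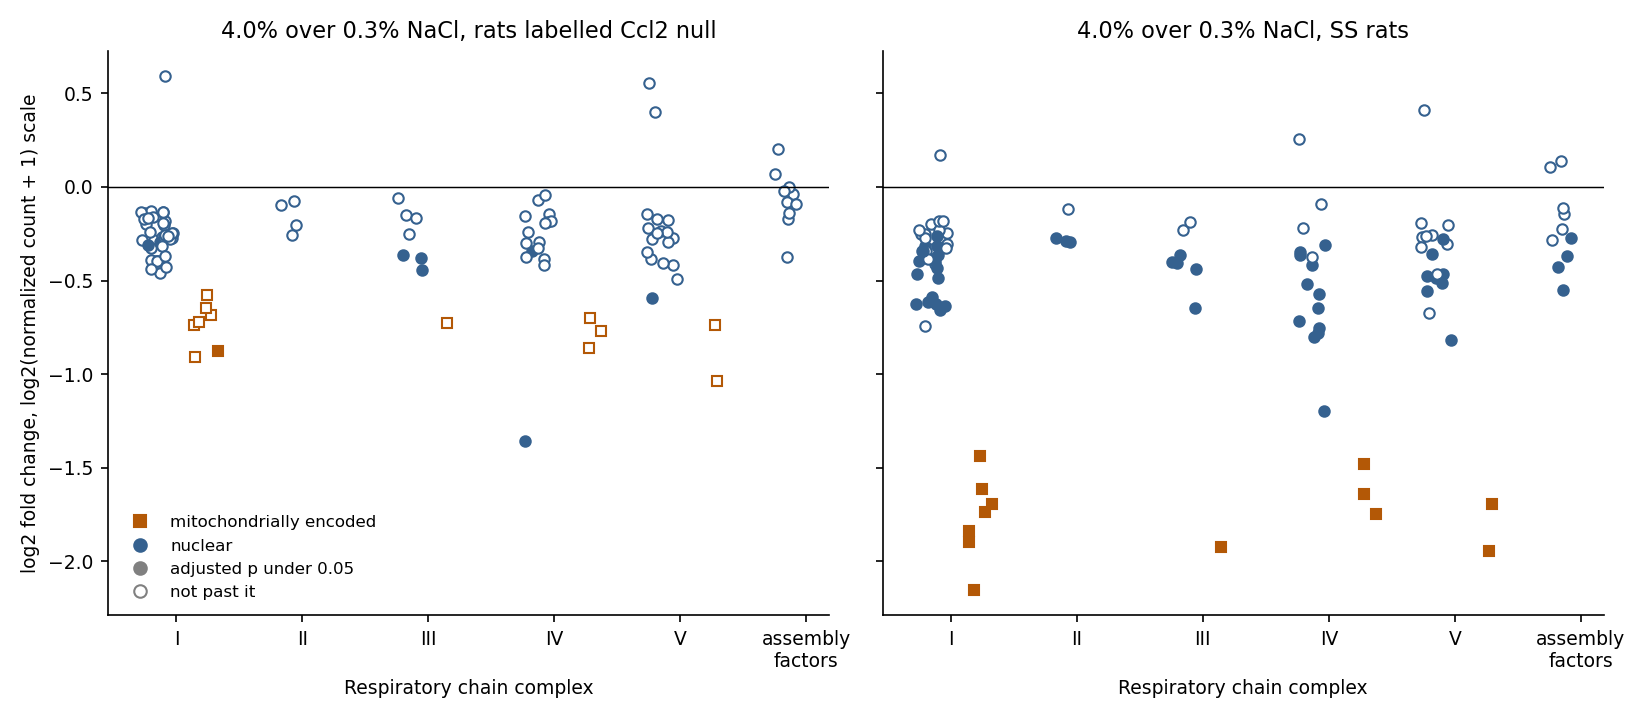
Log2 fold change of every tested subunit and assembly factor on 4.0% against 0.3% NaCl, by complex, in null rats (left) and SS rats (right), on the deposited scaling. Circles are nuclear and squares encoded members, filled where the limma adjusted p is under 0.05; in SS rats all 13 squares are filled and lie at or below -1.44, and most circles lie between -0.80 and 0.

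In null rats, 9 of 95 nuclear members were lower on high salt and none was higher on the deposited scaling, where 2.45% of all genes were lower and 3.06% were higher (limma). The median was -0.24 and 88 had a sign below 0. On total scaling the median was -0.12, against 0.12 for all genes, with 1 called higher and none lower. Uqcrq had 2601, 2688, 2840, 2720 and 2395 in null rats on high salt, against 3902, 3411, 3984, 3652 and 3114 on low salt. No value overlapped, and the log2 fold change was -0.44 ± 0.10 (limma adjusted p = 0.0109), the one call among the 9 kept in all 20 fits that each left out a rat. The complex III genes Uqcrh and Uqcr10 were lower, at -0.37 and -0.38, the complex I genes Ndufb5, Ndufa12 and Ndufs8 at -0.29, -0.40 and -0.31, and Cox5a at -0.34.

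Atp5f1e, the small epsilon subunit of the ATP synthase head, averaged 1914 ± 204 in null rats on high salt and 2931 ± 601 in null rats on low salt (SD, n = 5 each; log2 fold change -0.59 ± 0.17, limma adjusted p = 0.0406). Cox6a2, the muscle isoform described below, was the other call. Cox5b had 4540, 5142, 4467, 5117 and 3963 in null rats on high salt, against 7201, 5872, 6401, 3945 and 5514 on low salt. Rat 4 of the low-salt group was the lowest of all 10, and the log2 fold change of -0.30 ± 0.13 did not pass (limma adjusted p = 0.168).

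The count of 9 moved with single rats. It was 5, 1, 5, 3 and 1 when rats 1 to 5 of null high salt were left out in turn, 1, 3 and 1 without rats 1, 2 and 3 of null low salt, and 19 without rat 1 of SS high salt. The calls other than Uqcrq were kept in 7 to 14 of 20 such fits. Rat 1 of SS high salt enters through the shared estimate of spread. It was 15 without both libraries that stood apart, 16 by DESeq2 and 33 in a fit of the null groups alone. Of the cell markers in this comparison, 3 of 7 of the distal convoluted tubule were lower (median -0.47), as were 2 of 10 of the loop of Henle, while 2 of 16 of the proximal tubule were higher and 1 lower, and 1 of 7 pericyte markers was higher. Their part in the members' values was not tested.

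The encoded mRNAs moved further than their nuclear partners, and this contrast needs no scaling between libraries. The log2 ratio of the summed encoded to the summed nuclear values averaged 2.99 ± 0.40 in the null high-salt, 3.50 ± 0.58 in the null low-salt, 2.70 ± 0.93 in the SS high-salt and 4.07 ± 0.61 in the SS low-salt group (SD, n = 5 each). High minus low salt was -1.36 in SS rats and -0.51 in null rats, and null minus SS was 0.29 on high salt and -0.57 on low salt. The SS ranges of 1.68 to 3.59 on high salt and 3.37 to 5.00 on low salt overlapped slightly. Without rat 1 of SS high salt, the difference of null minus SS on high salt was 0.03. By complex, the ratio of encoded to nuclear subunits differed between SS rats on high and low salt by -1.48 in complex I, -1.59 in complex III, -1.15 in complex IV and -1.66 in complex V. Between null rats on high and low salt the differences were -0.45 in complex I, -0.49 in complex III, -0.48 in complex IV and -0.53 in complex V. On average the encoded partners thus differed from the nuclear ones in the same direction in every complex that holds both. The high-salt and low-salt ranges overlapped in each of these complexes in both genotypes. In complex I of null rats they were 2.34 to 3.77 on high salt and 2.69 to 4.72 on low salt. The complexes were read in the same libraries, so their common direction is not a set of separate observations.

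Between genotypes on high salt, 8 nuclear members passed: 3 higher in null rats, where 3.7% of all genes were, and 5 lower, where 4.82% were (limma). The share of members called was 8 of 95, no larger than that of all genes. In the same comparison 6 of 10 loop of Henle, 3 of 10 collecting duct, 3 of 10 endothelial, 2 of 16 proximal tubule and 4 of 7 pericyte markers were higher and none of these was lower, while 4 of 9 T cell and 2 of 7 distal convoluted tubule markers were lower and none higher. Their part was not tested. The median was -0.17, against 0.00. Ndufaf4, a complex I assembly factor, had 1011, 831, 945, 1043 and 1289 in null rats on high salt, against 683, 749, 793, 813 and 728 in SS rats on high salt (log2 fold change 0.43 ± 0.11, limma adjusted p = 0.0204). Each null rat was above each SS rat. On low salt it had 818, 934, 793, 1074 and 810 in null rats, against 1035, 776, 1017, 819 and 967 in SS rats, which lay across each other. Its interaction, named after its values were seen, was 0.49 ± 0.16 and did not pass (limma adjusted p = 0.0945).

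The other 2 members higher in null rats on high salt were the isoforms Cox4i2 and Ndufa4l2, described below. The members lower were Uqcrq at -0.34 ± 0.10, Uqcrh at -0.32 ± 0.10, Ndufs8 at -0.30 ± 0.09, Cox6a2 at -1.42 ± 0.39 and Ndufaf5, a complex I assembly factor, at -0.37 ± 0.11. Ndufaf5 averaged 414 ± 42.4 in null rats and 535 ± 41.2 in SS rats on high salt (SD, n = 5 each; limma adjusted p = 0.0463). These calls were near the threshold. Ndufaf4 was kept in 18 of 20 fits that each left out a rat, Cox6a2 in 15, Uqcrq in 14 and the others in 6 to 9. Without the 2 libraries that stood apart 2 members passed, Ndufaf4 at 0.40 and Cox6a2 at -1.54. The count was 2, 1, 2 and 0 without rats 1, 2, 4 and 5 of null high salt, 1, 3, 5 and 3 without rats 1 to 4 of SS high salt, 3, 4 and 5 without rats 1 to 3 of null low salt, and 5 and 3 without rats 1 and 5 of SS low salt.

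Between genotypes on low salt, 3 nuclear members were lower in null rats and none was higher, where 0.105% of all genes were lower and 0.452% were higher (limma). Ndufs6l1 averaged 2038 ± 340 in null rats and 2757 ± 132 in SS rats (log2 fold change -0.45 ± 0.09, limma adjusted p = 0.0318), Cox5a averaged 4648 ± 628 and 6175 ± 698 (-0.41 ± 0.09, limma adjusted p = 0.0417), and Ndufv2 was at -0.37 ± 0.08 (SD, n = 5 each, for the averages). The median of the nuclear members was -0.28 on the deposited scaling and -0.01 on total scaling, where all genes were at 0.26 and no member passed. The calls of Ndufs6l1, Cox5a and Ndufv2 were kept in 14, 8 and 5 of 20 fits that each left out a rat. The count was 1 by edgeR, 23 by DESeq2 and 56 at an unadjusted p under 0.05. It was 15 without rat 4 of SS low salt, 13 without rat 1 of SS high salt, 8 without rat 3 of null low salt, 0 without rat 2, 4 or 5 of null low salt or rat 1 or 3 of SS low salt, and 1 without rat 5 of SS low salt, rat 2, 3, 4 or 5 of null high salt, or rat 2 of SS high salt. Of the loop of Henle markers 1 of 10 was lower, and no other marker list had a call. By sign, all 10 loop of Henle and all 16 proximal tubule markers were lower in null rats. All 7 pericyte, 10 smooth muscle, 9 T cell and 9 macrophage markers and 8 of 10 endothelial markers were higher. Signs in the other lists were mixed. An unadjusted p under 0.05 was reached by 3 loop of Henle, 5 proximal tubule, 7 pericyte, 4 smooth muscle and 6 endothelial markers. Their part in the members' values was not tested.

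For the interaction, no nuclear member passed in either direction, where 0.774% of all genes were higher and 1.76% lower (limma). The median was 0.11, 15 had an unadjusted p under 0.05, and edgeR called none and DESeq2 called 1. Cox5b was at 0.51 ± 0.18 (limma adjusted p = 0.139) and Ndufs8 at 0.03. The count was 1 without rat 3 of null low salt. Of the markers, 6 of 10 of the loop of Henle were higher in the interaction and 3 of 9 of T cells lower. The nuclear members were thus not shown to respond to salt differently in the 2 genotypes.

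In complex IV, isoforms known from mural cells stand beside widespread ones. Ndufa4l2, a hypoxia-linked relative of Ndufa4, and Cox4i2, the counterpart of Cox4i1, are known as genes of pericytes and smooth muscle. Ndufa4l2 had 113, 200, 152, 161 and 163 in SS rats on high salt, against 242, 254, 182, 345 and 318 on low salt (log2 fold change -0.75 ± 0.17, limma adjusted p = 0.00498, kept in all 20 fits that each left out a rat). Only rat 2 on high salt lay above a low-salt rat. In null rats it had 257, 210, 186, 271 and 226 on high salt, against 210, 311, 261, 200 and 208 on low salt. These lay across each other at -0.04 (limma adjusted p = 0.918). On high salt it was higher in null than in SS rats by 0.55 ± 0.17 (limma adjusted p = 0.0491), a call kept in 6 of 20 fits, and its interaction of 0.71 ± 0.25 did not pass (limma adjusted p = 0.123).

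Cox4i2 had 279, 273, 221, 230 and 265 in null rats and 181, 183, 242, 196 and 161 in SS rats on high salt, and 258, 279, 245, 307 and 240 in null rats and 276, 230, 205, 306 and 269 in SS rats on low salt. The SS high-salt rats were the lowest, but for rat 3. High salt changed it by -0.42 ± 0.13 in SS rats (limma adjusted p = 0.0252) and by -0.07 in null rats (limma adjusted p = 0.782). Null over SS on high salt was 0.40 ± 0.13 (limma adjusted p = 0.0481), kept in 6 of 20 fits. On total scaling the SS salt change was -0.03 for Cox4i2 and -0.36 for Ndufa4l2, and neither passed.

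Within a library, relative to the widespread partner, the log2 ratio of Ndufa4l2 to Ndufa4 differed by -0.18 between SS rats on high and low salt and by 0.15 between null rats on high and low salt, and that of Cox4i2 to Cox4i1 by -0.20 and 0.17. Single rats move these salt differences: leaving out each in turn gave -0.33 to -0.06 in SS rats and 0.06 to 0.25 in null rats for Ndufa4l2 over Ndufa4, and -0.34 to -0.07 and 0.11 to 0.26 for Cox4i2 over Cox4i1. Between null and SS rats on high salt the 2 ratios differed by 0.51 and 0.74. The partners themselves averaged 8690 ± 486 for Ndufa4 and 17057 ± 1586 for Cox4i1 in null rats on high salt, and 8478 ± 945 and 21763 ± 4178 in SS rats on high salt (SD, n = 5 each). Pericyte markers went the same way as these isoforms between genotypes on high salt, but not in the other comparisons given here. On high salt 4 of 7 were higher in null than in SS rats, with sums of 18042 to 21738 in null rats and 9099 to 16033 in SS rats, and none was at 0. On low salt none of the 7 passed, but all 7 were higher in null rats at an unadjusted p under 0.05, while the Ndufa4l2 and Cox4i2 values of the genotypes lay across each other. In SS rats 3 of 7 pericyte markers were higher on high than on low salt, where their sums were 9675 to 15299 on low salt, while Ndufa4l2 and Cox4i2 were lower. No smooth muscle marker of 10 passed for salt in SS rats, 1 was at an unadjusted p under 0.05, and 1 of 10 was higher in null rats on high salt. The part of mural cells in these values was not tested.

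**Figure D5:**
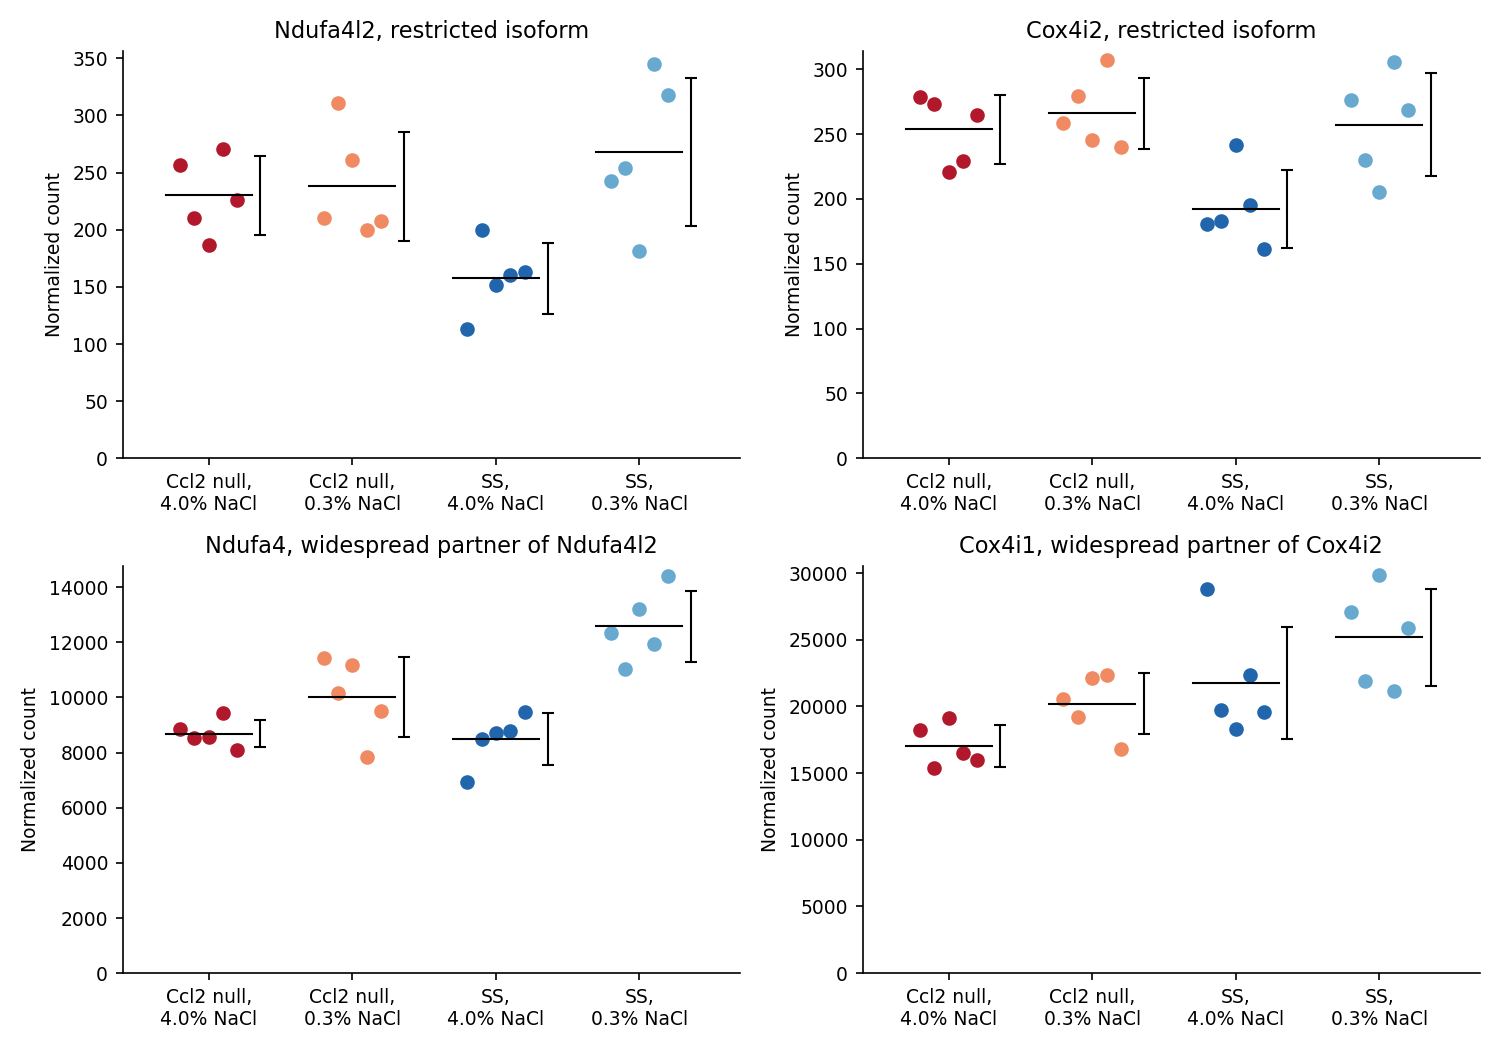
Normalized counts of the isoforms Ndufa4l2 and Cox4i2 (top) and of their widespread partners Ndufa4 and Cox4i1 (bottom) in each rat, on the deposited scaling, with each axis starting at 0. Points are rats, the line is the group mean and the bar the SD (n = 5); the SS high-salt rats lie between 113 and 200 for Ndufa4l2 and, but for rat 3 at 242, between 161 and 196 for Cox4i2.

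The isoforms known from striated muscle were rare. Cox7a1, the partner of Cox7a2, had 8.33, 15.6, 11.5, 16.0 and 7.69 in SS rats on high salt, against 40.0, 31.7, 23.9, 14.8 and 33.6 on low salt (log2 fold change -1.20 ± 0.30, limma adjusted p = 0.00769). Rat 4 on low salt lay among the high-salt rats. In null rats it had 14.3, 24.2, 25.6, 15.8 and 24.1 on high salt, against 18.3, 18.7, 21.9, 33.9 and 22.5 on low salt, a change of -0.14, and the interaction of 1.06 ± 0.42 did not pass (limma adjusted p = 0.183). Cox6a2, the partner of Cox6a1, had 5.51, 1.86, 2.77, 5.28 and 2.09 in null rats on high salt, against 8.67, 13.1, 11.4, 8.47 and 8.45 on low salt. All 5 high-salt rats were lower (log2 fold change -1.36 ± 0.39, limma adjusted p = 0.0429).

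Cox6a2 had 7.14, 21.1, 5.73, 8.37 and 15.4 in SS rats on high salt, against 6.06, 15.9, 7.61, 6.33 and 9.24 on low salt, at 0.25 (limma adjusted p = 0.705). The SS groups lay across each other. Its interaction of -1.61 ± 0.55 did not pass on the deposited scaling (limma adjusted p = 0.121) and did on total scaling at -1.87 (limma adjusted p = 0.0484). With values this low the pseudocount matters: the salt difference of log2 Cox6a2 over Cox6a1 in null rats was -1.06 with a pseudocount of 1 and -0.35 with 8.

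Lists of other mitochondrial genes had medians nearer to 0, and their counts stand against 7.73% of all genes lower and 9.52% higher. In SS rats on high salt, 10 of 38 assembly genes outside the naming rule were lower and none higher (median -0.15), among them Uqcc2 of complex III at -0.65 ± 0.12 (limma adjusted p = 0.00103). Of 18 tricarboxylic acid cycle genes 6 were lower (median -0.20), such as Idh3b at -0.27 (limma adjusted p = 0.0156), while citrate synthase, Cs, was at -0.19 (limma adjusted p = 0.06). Of 19 outer membrane, import and carrier genes 6 were lower (median -0.21), with the channel Vdac1 at -0.50 and the import subunit Timm50 at -0.36. Idh3b and Timm50 were at 0.12 and 0.03 on total scaling. Of 18 genes of cytochromes c and c1 and coenzyme Q synthesis 2 were lower (11.1%), close to the share of all genes, with Cyc1 at -0.23 and Cycs at -0.31, neither of which passed.

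Of 35 genes that copy, transcribe or handle mitochondrial DNA and RNA, 2 were lower in SS rats on high salt (5.71%, median -0.05), against 7.73% of all genes. These were Mterf4, needed for ribosome assembly in mitochondria, at -0.37, and Slirp, which with Lrpprc stabilises encoded mRNAs, at -0.35; on total scaling they were at 0.02 and 0.04. Tfam, which packs and helps transcribe mitochondrial DNA, was at 0.02, the polymerase Polrmt at 0.22 and Lrpprc at -0.03, and none passed (limma adjusted p = 0.905, 0.109 and 0.856). Of 15 regulators of mitochondrial biogenesis, Nrf1 was higher by 0.25 ± 0.08 (limma adjusted p = 0.0289), and Ppargc1a at -0.22 and Esrra at -0.02 did not pass. Of 9 genes of uncoupling and reactive oxygen defence 1 was higher, Ucp2, an inner membrane carrier, by 0.46, and 1 was lower, with 8 signs below 0 (median -0.20). Of 18 genes of membrane organisation, fusion and fission 1 was higher, Mfn1, which fuses outer membranes, by 0.29, and 3 were lower (median -0.16). Of 22 genes of glycolysis and the hypoxia response 1 was higher and 4 were lower (median -0.14).

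In null rats on high salt, counts of these lists stand against 2.45% of all genes lower and 3.06% higher. Of 38 assembly genes 1 was lower, Uqcc2 at -0.44, and of 35 genes for mitochondrial DNA and RNA 1 was lower, Slirp at -0.38. Of 18 genes of cytochromes c and c1 and coenzyme Q synthesis 1 was higher and 1 lower. These were the electron transfer flavoprotein dehydrogenase Etfdh at 0.52 (limma adjusted p = 0.00896) and Coq4 at -0.47 (limma adjusted p = 0.00902). Of 15 regulators of mitochondrial biogenesis 1 was higher, the deacetylase Sirt1, by 0.35 (limma adjusted p = 0.0151). No tricarboxylic acid cycle gene of 18 passed there, and none had an unadjusted p under 0.05. Between genotypes on high salt, where 3.7% of all genes were higher in null rats and 4.82% lower, 1 of 18 genes of membrane organisation, fusion and fission was higher. This was Dnm1l, which divides mitochondria, at 0.23 (limma adjusted p = 0.0478), a call kept in 4 of 20 fits that each left out a rat. Coq8b, a kinase-like protein of coenzyme Q synthesis, was lower at -0.45 (limma adjusted p = 0.0102), a call kept in all 20.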

How the data were processed

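Vessel RNA had been isolated with TRIzol, DNase treated and poly A selected, per the labels' protocols. The submitters' processing notes name Trim Galore, MultiQC, STAR 2.7.11b, Subread's featureCounts 2.0.6, DESeq2 1.44 and the build mRatBN7.2; no source used here gives the settings, strand or annotation. The authors deposited normalized counts, a signal in which each library's reads are divided by 1 factor. Dividing by the smallest positive value of a library returned whole reads for 100% of values (tolerance 1e-06).

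Genes were tested with limma 3.58.1 in R 4.3.3 (lmFit, eBayes with trend) on log2(value + 1), which understates changes of rare genes. All 20 libraries entered 1 fit of 4 groups; 16153 genes had at least 10 in at least 5 libraries and 519 did not. Benjamini-Hochberg adjusted p-values were taken over all tested genes in each of 5 comparisons, with a threshold of 0.05; the interaction subtracts the SS salt effect from the null one. Errors are standard errors for fold changes and SDs for levels. The labels call the samples separate rats, so p-values measure the spread between rats. Ratios were taken within libraries and not tested.

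Alternatives were other pseudocounts (0.5, 8), a filter of 100 or none, quantile normalization, total scaling with or without encoded genes, fits of only the compared groups, weighted libraries, a replicate block, a covariate of tubule markers, edgeR 4.0.16 (quasi-likelihood) and DESeq2 1.42.0 on recovered reads, and leaving out each rat; leaving out both libraries that stood apart was added after seeing the data. The limma step was tested on simulated data, and the edgeR and DESeq2 steps were not. Members, gene lists and tests were chosen with earlier results of these data known. Named genes are the encoded genes, core subunits and isoform pairs, per complex up to 4 higher and 4 lower members of smallest p, up to 4 genes of each other list, and some fixed regulators. Reads of encoded genes, Atp5mc1 and Cox6b1 rows, Ndufs6 and Ndufs6l1, Cycs and pseudogenes are uncertain between near-identical copies.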

Additional observations from a re-analysis of the deposited data

Results flagged for a closer look

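Of 108 groups of 5 values looked at for a rat far from the others, 2 had one, and chance gives about 1 in 20 such groups. Cox7a1 had 33.9 normalized counts in rat 4 of the null low-salt group, against 18.3 to 22.5 in the other 4 rats of that group. The log2 ratio of Cox6a2 to Cox6a1 was -9.46 in rat 2 of the SS low-salt group, against -10.9 to -10.5 in the other 4.

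The salt effect on Coq8b, of coenzyme Q synthesis, differed between genotypes: the null effect less the SS effect was -0.53 ± 0.14 (limma adjusted p = 0.0467). Coq8b averaged 742 ± 52.5 in the null high-salt, 917 ± 97.3 in the null low-salt, 1022 ± 163 in the SS high-salt and 865 ± 72.8 in the SS low-salt group (SD, n = 5 each). The call was kept in 4 of 20 fits that each left out a rat, and without the 2 libraries that stood apart the difference was -0.40 and did not pass.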

How the results depend on the processing

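The libraries limit what can be called: 5 rats a group, encoded mRNAs that vary widely between rats, tubule RNA that differs between the SS groups, and a scaling that sets the sign of small changes. Counts below are members past the threshold of limma unless another tool is named, and the cause of a change between settings was not tested unless given.

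For salt in SS rats, total scaling gave 7 nuclear members (4 higher, 3 lower), the SS groups alone 30 and the tubule covariate 0; for encoded members quantile normalization gave 5 and the tubule covariate 0. For salt in null rats, nuclear members numbered 1 on total scaling (higher), 14 on total scaling without encoded genes, 17 with quantile normalization, 33 in the null groups alone, 34 with library weights, 16 by DESeq2 and 15 without both libraries that stood apart. Encoded members there numbered 0 on total scaling without encoded genes, with the replicate block and with the tubule covariate, 4 in the null groups alone, 7 with library weights, and 2 by DESeq2 and without both libraries. For null against SS on high salt, nuclear members numbered 1 on total scaling, 5 in the compared groups alone, 4 with library weights, 3 with the tubule covariate (2 higher, 1 lower) and 2 without both libraries. On low salt they numbered 0 on total scaling, in the compared groups alone and with the tubule covariate, 1 with quantile normalization, by edgeR and without both libraries, 28 with library weights and 23 by DESeq2, which also called 1 encoded member. For the interaction, total scaling gave 1 nuclear member (lower) and DESeq2 gave 1 (higher).

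At a pseudocount of 8 the log2 ratio of Cox6a2 to Cox6a1 differed by -0.35 for salt in null rats, -0.41 for null against SS on high salt and -0.89 for the interaction. Genes whose sign turned for salt in SS rats were Mt-co1 at 0, Mt-co3 at 0 and Mt-co2 at 0.0681 under quantile normalization, which gives genes of equal rank equal values; Vdac1 at 0.0018 with the tubule covariate; and, on total scaling, Ndufs1 at 0.13, Ndufs8 at 0.0482, Sdhb at 0.12, Sdhc at 0.10, Sdhd at 0.10, Sdhaf2 at 0.12, Ndufaf1 at 0.0182, Cox7a2 at 0.0428, Cox6a1 at 0.0261, Lrpprc at 0.36, Slirp at 0.0366, Mterf4 at 0.0198, Timm50 at 0.033 and Idh3b at 0.12. Of the 72 values named for salt in SS rats, total scaling left 34 on the same side of 0 and of the threshold, and the tubule covariate 18.

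Leaving out each rat in turn gave 36 to 66 nuclear and 12 to 13 encoded members for salt in SS rats, 1 to 19 and 0 to 1 for salt in null rats, 0 to 8 and 0 for null against SS on high salt, 0 to 15 and 0 to 1 on low salt, and 0 to 1 and 0 for the interaction. On high salt the balance turned without rat 2 of the null group, to 1 higher, and without rat 2 of the SS group, to 2 higher and 1 lower of 3. The encoded to nuclear difference ran from -1.59 to -1.11 for salt in SS rats, -0.67 to -0.29 for salt in null rats, 0.03 to 0.51 for null against SS on high salt, -0.79 to -0.34 on low salt and 0.60 to 1.08 for the interaction. Rats with the same number showed no common deviation over all tested genes (correlations of -0.16 to 0.14 over 30 pairs, median -0.01). A pairing that touches few genes could be missed by this check. The replicate block gave 48 nuclear and 12 encoded members for salt in SS rats and 11 and 0 for salt in null rats.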
